A study of Arabidopsis thaliana with 4 samples.

Results

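The JAZ proteins (JASMONATE ZIM-DOMAIN) are the repressors of jasmonate signalling. Probes for 10 of their genes, JAZ1, JAZ2, JAZ3, JAZ5, JAZ6, JAZ7, JAZ8, JAZ9, JAZ10 and JAZ12, were taken by locus identifier from 25665 named loci on the array. The 10 genes had 11 probes, with 1 spot each and a further probe for JAZ10. Their transcripts were read in the Arabidopsis mutant ang3 and in the control genotype Ler (Landsberg erecta) on 4 Agilent arrays with a dye for each genotype. RNA came from green parts of seedlings grown in vitro under 16 h of light at 21 °C after 3 days in the cold, with the tissue labelled shoot apex. The stage is 1.02 in the sample labels and 1.03 in the series text. ang3 RNA carried Cy5 on replicates 1 and 3 and Cy3 on replicates 2 and 4. The mutation in ang3 lies, as background, in RPL5B, which encodes a protein of the large ribosomal subunit. The control is a laboratory line that carries the erecta mutation.

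As background, a JAZ protein binds MYC-type transcription factors through its Jas motif and, through its TIFY domain, the adaptor NINJA, which brings in TOPLESS co-repressors. The hormone jasmonoyl-isoleucine joins JAZ to the F-box receptor COI1, and the JAZ protein is then degraded, which frees the MYC factors. Many JAZ genes are themselves induced by jasmonate within a short time, a negative feedback, so that their transcripts serve as readouts of recent signalling. In leaves, touch and wounding are well-known triggers.

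None of the 7 measured JAZ genes passed the test for a difference between ang3 and Ler. JAZ1 had the highest mean ratio, 1.38-fold, and its 4 arrays disagreed. JAZ9 was high on 1 array. The other 5 measured genes, JAZ2, JAZ3, JAZ6, JAZ10 and JAZ12, had mean log2 ratios of -0.10 to 0.05. JAZ5, JAZ7 and JAZ8 were too dim to be tested. Transcripts of the JAZ-bound factors MYC2, MYC4 and MYC5 and of the jasmonate response genes VSP1, ORA59 and TAT3 did pass, as higher in ang3. Of all genes tested, 15.0% were called higher. MYC2 and MYC5 did not pass without replicate 3, and MYC5 was named with its value known. In size JAZ1 lay among these JAZ-bound factors and response genes, with a mean log2 ratio of 0.46, against 0.39 for MYC2 and 0.53 to 1.35 for the others. The difference between the JAZ genes and these other genes was not itself tested.

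Ratios are given as log2 of ang3 over Ler. They come from spot intensities corrected for background with an added offset of 50 and normalized by loess within each array, and the offset shrinks the ratios of dim probes. Each gene was fitted with limma with a term for dye, and the Benjamini-Hochberg adjustment ran over 20155 genes and unnamed probes. A probe entered the fit when 3 or more of its 4 spots in ang3, or in Ler, were well above background. The count of members called was 0 of 7 at an adjusted p under 0.05, and also 0 of 7 at an unadjusted p under 0.05. Over all genes tested, 26.2% were called, 15.0% as higher and 11.2% as lower. Whether 0 of 7 departs from this share was not tested, and 7 genes are few for it. With 4 arrays precision is limited, and an exact permutation test that flips the signs of 4 arrays cannot give a two-sided p below 0.125. The median ratio of the 7 genes was 0.02, against 0.01 over all genes tested, and 4 had a mean above 0 and 3 below it. In RNA of whole green parts, fewer cells of a type and less RNA per cell cannot be told apart.

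Between 19224 and 21332 of 37478 probes were well above background per genotype and array. Replicate 1 had the smallest spread of ratios over all genes (SD 0.198, against 0.285 to 0.335 on the other arrays). The RPL5B probe had a mean ratio of -0.04 (adjusted p = 0.704, limma) and gave no check of the labels. Of 8 shoot and leaf markers, 8 were well above background on all arrays in both ang3 and Ler, and 3 rose and 3 fell. AS1 rose by 0.40, STM by 0.36 and KNAT1 by 0.32, whereas CAB1 fell by 0.44, LHCB1.1 by 0.39 and RBCS1A by 0.17. The summed shoot level was 17.14 to 17.33 in ang3, below the 17.39 to 17.62 of Ler, and its part in the results was not tested. Of 8 root markers, 4 were well above background on all arrays in each genotype, PLT1 on no array, and 0 of 7 tested passed. Their summed log2 level was 12.41 to 13.19 in ang3 and 12.71 to 13.12 in Ler. Of 5 flower markers, 3 were tested and 2 fell in ang3, SEP3 by 0.90 and PI by 0.25. The summed flower level was 10.00 to 10.36 in ang3, below the 10.68 to 11.02 of Ler, and its part in the results was not tested.

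**Figure D1:**
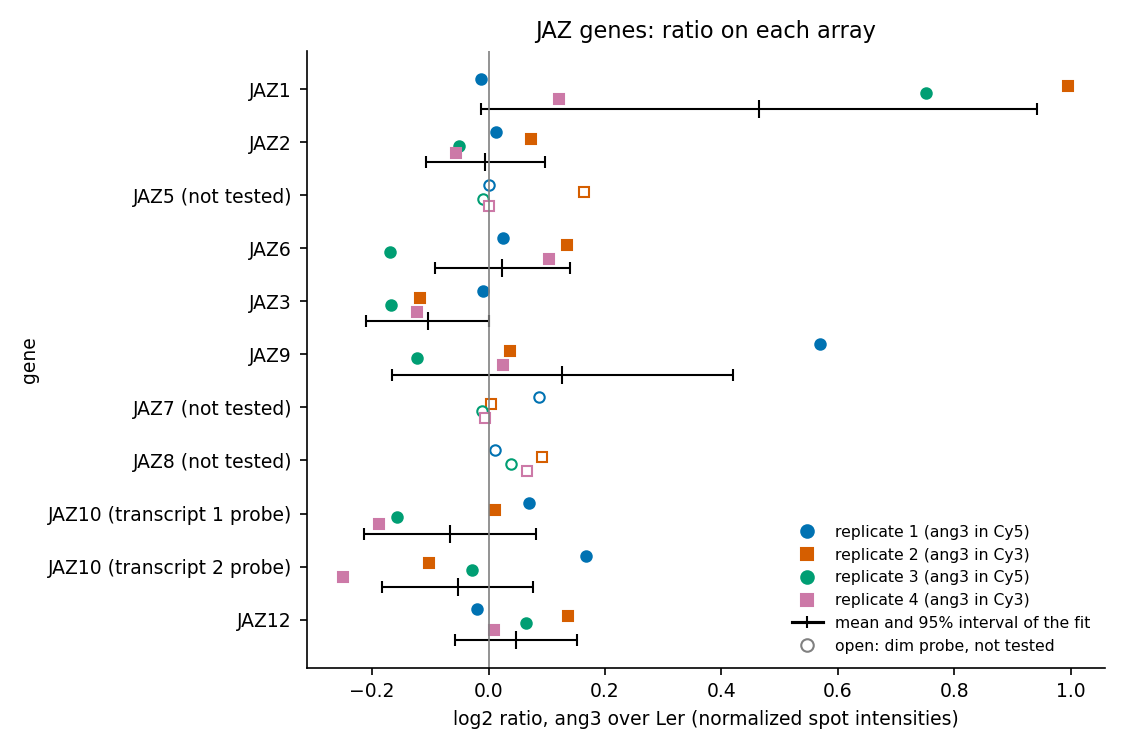
Log2 ratio of ang3 over Ler (x axis) for each JAZ probe (rows) on each of 4 arrays, with circles where ang3 carried Cy5 and squares where it carried Cy3. Black bars give the mean and the 95% interval of the fit, and open symbols mark the dim JAZ5, JAZ7 and JAZ8 probes. JAZ1 lies at 1.00 and 0.75 on replicates 2 and 3 and near 0 on replicate 1, and JAZ9 lies at 0.57 on replicate 1.

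JAZ1, JAZ2, JAZ5 and JAZ6 are related in sequence and form one branch of the family. JAZ1 (At1g19180), a repressor that binds MYC2 and that COI1 targets in the presence of the hormone, was well above background in both genotypes on 4 arrays. Its log2 channel levels were 8.46, 8.69, 8.80 and 7.97 in ang3 on replicates 1 to 4, against 8.48, 7.69, 8.05 and 7.85 in Ler. The ranges overlapped, with replicates 2 and 3 higher in ang3 and replicate 1 about level. The ratios were -0.01, 1.00, 0.75 and 0.12. Their mean was 0.46 (SE 0.186, SD 0.487, n = 4), with a 95% interval of -0.01 to 0.94 and an adjusted p of 0.127 (limma). In folds this interval runs from 0.99 to 1.92, which holds both no difference and a fold close to its upper end. The dye term had an unadjusted p of 0.633, and the 2 arrays of each orientation differed from each other. Without replicate 2 the fitted ratio was 0.25 (adjusted p = 0.369), and without replicate 3 it was 0.27 (adjusted p = 0.422). With 1 array left out, the fit gives both dye orientations equal weight, so the lone array of an orientation counts more than the others. With median centring of the arrays instead of loess, JAZ1 passed, at 0.58 (adjusted p = 0.0161). That centring moved the median of all genes to 0.14, and JAZ1 stood 0.43 above it.

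On single arrays, the deposited Feature Extraction values gave JAZ1 log2 ratios of -0.18, 1.39, 1.27 and 0.16. The criterion in the series text, a p under 0.05 with a log2 ratio beyond 1 in size, was met on replicates 2 (p = 1.29e-08) and 3 (p = 1.28e-07), in the authors' deposited values. Over all genes tested, 3.80% met it on at least 2 arrays and 6.00% on at least 1 array. Of the 7 measured members, JAZ1 alone met it on any array. These p-values come from the error model of 1 array at a time and do not include the spread between replicates.

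JAZ2 (At1g74950), the closest relative of JAZ1 and known for its role in guard cells, had the closest arrays of the 7. Its log2 levels were 9.65, 9.62, 9.66 and 9.47 in ang3, against 9.64, 9.55, 9.71 and 9.53 in Ler. The ranges overlapped and no array stood apart. The mean ratio was -0.0054 (SE 0.0401, SD 0.0611, n = 4; adjusted p = 0.932, limma), with a 95% interval of -0.11 to 0.10.

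JAZ6 (At1g72450), which carries an EAR motif for binding co-repressors, was well above background on all arrays. Its levels were 11.83, 11.74, 11.36 and 11.54 in ang3, against 11.80, 11.60, 11.53 and 11.44 in Ler. Replicate 3 was lower in ang3 and replicates 2 and 4 were higher, within overlapping ranges. The mean ratio was 0.02 (SE 0.0453, SD 0.137, n = 4; adjusted p = 0.726, limma), with a 95% interval of -0.09 to 0.14. JAZ5 (At1g17380), a further EAR-bearing repressor known to attenuate the response together with JAZ10, was not well above background on any array in either genotype and was not tested.

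**Figure D2:**
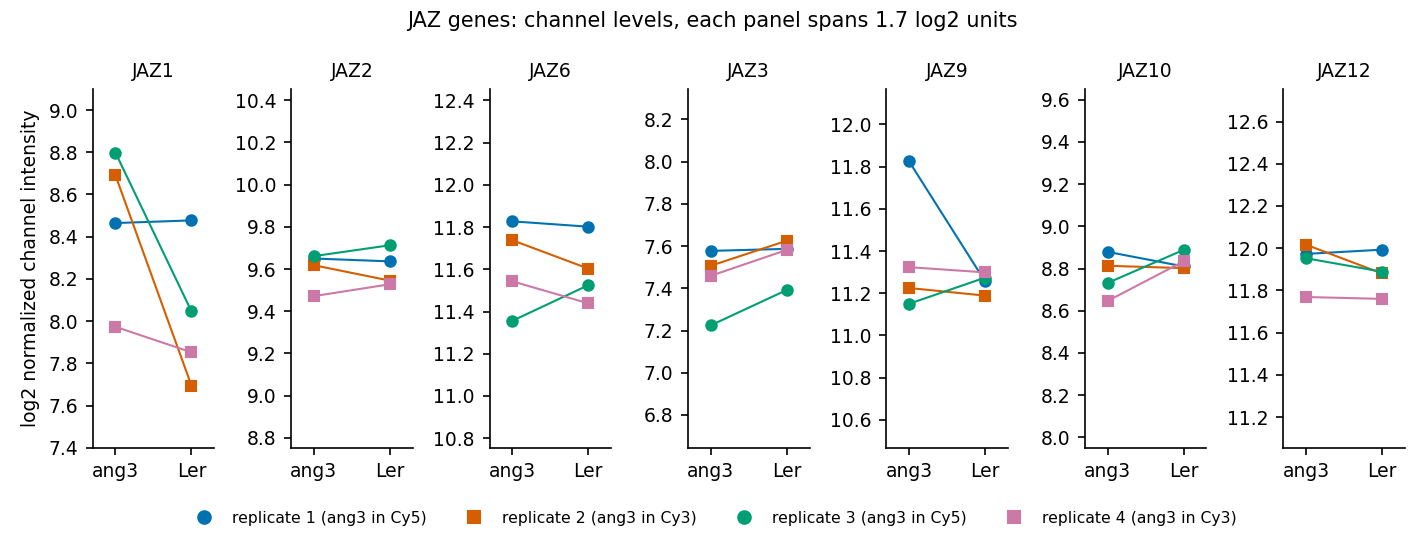
Log2 normalized channel intensity (y axis) of the 7 measured JAZ genes in ang3 (left) and Ler (right), with a line joining the 2 channels of an array. Each panel spans the same range of log2 units around its own centre, so slopes can be compared between panels and heights cannot. The lines of JAZ1 slope steeply on replicates 2 and 3, at ratios of 1.00 and 0.75, and little on replicates 1 and 4.

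JAZ3 and JAZ9 belong to another branch of the family. JAZ3 (At3g17860), the repressor known from the jai3 mutant, was the only measured member with the same sign on 4 of 4 arrays. Its levels were 7.58, 7.51, 7.22 and 7.46 in ang3, against 7.59, 7.63, 7.39 and 7.58 in Ler. Each array was lower in ang3, on replicate 1 by very little, and the ranges overlapped. The ratios were -0.01, -0.12, -0.17 and -0.12, with a mean of -0.10 (SE 0.0413, SD 0.067, n = 4). The 95% interval was -0.21 to 0.0015 and the adjusted p was 0.123 (limma). With Feature Extraction's processed signals, which carry no offset, the mean was -0.34 (adjusted p = 0.0724).

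JAZ9 (At1g70700), a MYC2-binding relative of JAZ3, differed on a single array. Its levels were 11.82, 11.22, 11.15 and 11.32 in ang3, against 11.26, 11.19, 11.27 and 11.30 in Ler. Replicate 1 was the high one in ang3, and the other arrays lay within or close to the narrow range of Ler (SD 0.304 in ang3 and 0.0472 in Ler). The ratios were 0.57, 0.04, -0.12 and 0.02, with a mean of 0.13 (SE 0.114, n = 4; adjusted p = 0.446, limma) and a 95% interval of -0.17 to 0.42. Without replicate 1 the fitted ratio turned to -0.05 (adjusted p = 0.574), and without replicate 3 it was 0.30 (adjusted p = 0.06). The deposited Feature Extraction p for JAZ9 on replicate 1 was 0.00341, with a ratio of 0.62, which is below the authors' limit on size.

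JAZ7 (At2g34600) and JAZ8 (At1g30135) encode short repressors with EAR motifs. JAZ8 is known to lack the usual degradation signal and so to resist the hormone. The JAZ8 probe was not well above background on any array. The JAZ7 probe was well above background in ang3 on 1 of 4 arrays, replicate 1, and in Ler on none. On replicate 1 the deposited Feature Extraction ratio of JAZ7 was 1.62 (p = 0.000884 in the authors' deposited values), whereas the offset-corrected ratio was 0.09. On the other arrays JAZ7 was well above background in neither genotype. Its deposited ratios there were 0.68, -0.14 and -0.15, and they are not read as differences. Over the dim JAZ5, JAZ7 and JAZ8 probes, log2 levels were 6.96 to 7.30 in ang3 and 6.92 to 7.21 in Ler. With no filter on dim probes, their ratios were 0.04, 0.02 and 0.05, and the lowest adjusted p of the 3 was 0.319 (limma).

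JAZ10 (At5g13220) is known for alternative splice forms that lose part or all of the Jas motif and resist degradation. The array has a probe named for transcript 1 and a probe named for transcript 2, both well above background on all arrays. The probe for transcript 1 had levels of 8.88, 8.81, 8.73 and 8.65 in ang3, against 8.81, 8.80, 8.89 and 8.83 in Ler. Replicates 3 and 4 were lower in ang3 and replicate 1 was slightly higher. Its mean ratio was -0.07 (SE 0.0578, SD 0.125, n = 4; adjusted p = 0.431, limma), with a 95% interval of -0.21 to 0.08. The probe for transcript 2 gave ratios of 0.17, -0.10, -0.03 and -0.25, with a mean of -0.05 (SE 0.0508, SD 0.174; adjusted p = 0.47 over all tested probes). On any array the ratios of the JAZ10 probes differed by 0.06 to 0.13. Probe sequences were not used here, so which splice forms each probe detects cannot be stated.

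JAZ12 (At5g20900), a repressor whose protein level is known to depend on the ubiquitin ligase KEG, was well above background on all arrays. Its levels were 11.97, 12.02, 11.95 and 11.77 in ang3, against 11.99, 11.88, 11.89 and 11.76 in Ler. Replicate 2 was highest in ang3 and the ranges overlapped. The mean ratio was 0.05 (SE 0.0408, SD 0.0688, n = 4; adjusted p = 0.427, limma), with a 95% interval of -0.06 to 0.15. With median centring JAZ12 passed, at 0.24 (adjusted p = 0.0215), which is 0.10 above the median of all genes under that centring.

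For the 5 genes other than JAZ1 and JAZ9 the 95% intervals together ran from -0.21 to 0.15, or 0.86- to 1.11-fold. JAZ1 and JAZ9, which had the widest intervals, were left out with their values known. The range holds for ratios with the offset, which shrinks those of dim probes such as JAZ3. With the processed signals, which carry no offset, JAZ3 stood at -0.34 and JAZ10 at -0.19. JAZ2, JAZ6 and JAZ12 stood at -0.05, 0.02 and 0.04. Channel levels of ang3 and Ler overlapped for 7 of 7 measured members, and they did not overlap for 22.5% of all genes tested. Whether the members depart from this share or the shares that follow was not tested, and 7 genes are few for it. The dye term was below an unadjusted p of 0.05 for 0 of 7 members, against 15.0% of all genes. With an adjusted p under 0.05 it was called for 0 genes, with limma. Of the 7 tested members, 0 had a ratio above 0 on 4 of 4 arrays, against 25.0% of all genes tested, and 1, JAZ3, had one below 0 on each, against 19.0%. None of the 7 had an array beyond Dixon's critical value for a lone outlier, which 4.27% of all genes tested had. The dim JAZ8 probe had a ratio above 0 on 4 of 4 arrays, at 0.01 to 0.09.

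Of the other TIFY genes, 7 of 9 listed were tested, none rose or fell, and 2 had an unadjusted p under 0.05. Their median ratio was 0.02. PPD2, which limits leaf growth and shares the TIFY domain, had the smallest p of the list, with a ratio of 0.13 (SE 0.0413; adjusted p = 0.0702, limma), and its tandem copy PPD1 can share its signal. JAZ11 had a ratio of 0.02 (adjusted p = 0.778), and JAZ4 was too dim to be tested. With median centring 3 of these genes rose.

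The list of hormone perception and co-repressor genes had 1 gene that rose, 1 that fell and 11 that did not pass among 13 tested, with a median of 0.03. NINJA, the adaptor between JAZ and co-repressors, rose by 0.18 (SE 0.0376, n = 4; adjusted p = 0.0268, limma), and ASK2, a subunit of SCF ubiquitin ligases, fell by 0.14 (adjusted p = 0.0444). Both calls were lost when any 1 array was left out (adjusted p of 0.0551 to 0.138 for NINJA and 0.0979 to 0.182 for ASK2), and with median centring 7 genes of the list rose and ASK2 turned to 0.053 (adjusted p = 0.546). NINJA also lost its call with the processed signals (adjusted p = 0.0516) and the authors' series table (adjusted p = 0.0517). ASK2 also lost its call with a normexp offset of 0 (adjusted p = 0.0588) and no dye term (adjusted p = 0.0843). The receptor gene COI1 had a ratio of 0.15 (adjusted p = 0.0848).

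Of 12 tested genes for transcription factors that JAZ proteins bind, 7 rose, 1 fell and 4 did not pass, and the list median was 0.18. MYC4, a bHLH activator of jasmonate responses, rose by 0.53 (SE 0.0371, SD 0.104, n = 4; adjusted p = 0.00664, limma). Its ratios were 0.41, 0.57, 0.48 and 0.65, so that all arrays were higher in ang3. MYC2, the main activator of the pathway, rose by 0.39 (SE 0.0496; adjusted p = 0.0112), with 0.19, 0.49, 0.42 and 0.46. TT8, a bHLH regulator of flavonoid genes, rose by 0.94 (SE 0.0745; adjusted p = 0.00738), and GL1, a trichome MYB factor, fell by 0.20 (adjusted p = 0.0276). MYC3 and MYC5, named after their values were seen as relatives of MYC2, rose by 0.20 (adjusted p = 0.0209) and 0.74 (adjusted p = 0.0138). Leaving out any 1 array ended the call of MYC3 (adjusted p of 0.0644 to 0.0938) and of GL1 (adjusted p of 0.0504 to 0.151), and GL1 also lost it in a fit with no dye term (adjusted p = 0.0596) and with median centring (adjusted p = 0.253). Without replicate 3, MYC2 stood at 0.33 (adjusted p = 0.0553) and MYC5 at 0.67 (adjusted p = 0.0715), and 2 genes of the list rose, against 4 without replicate 4. MYC4 and TT8 passed in each of the 12 alternatives run for them, and with the processed signals TT8 stood at 1.72 and GL1 at -0.40.

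**Figure D3:**
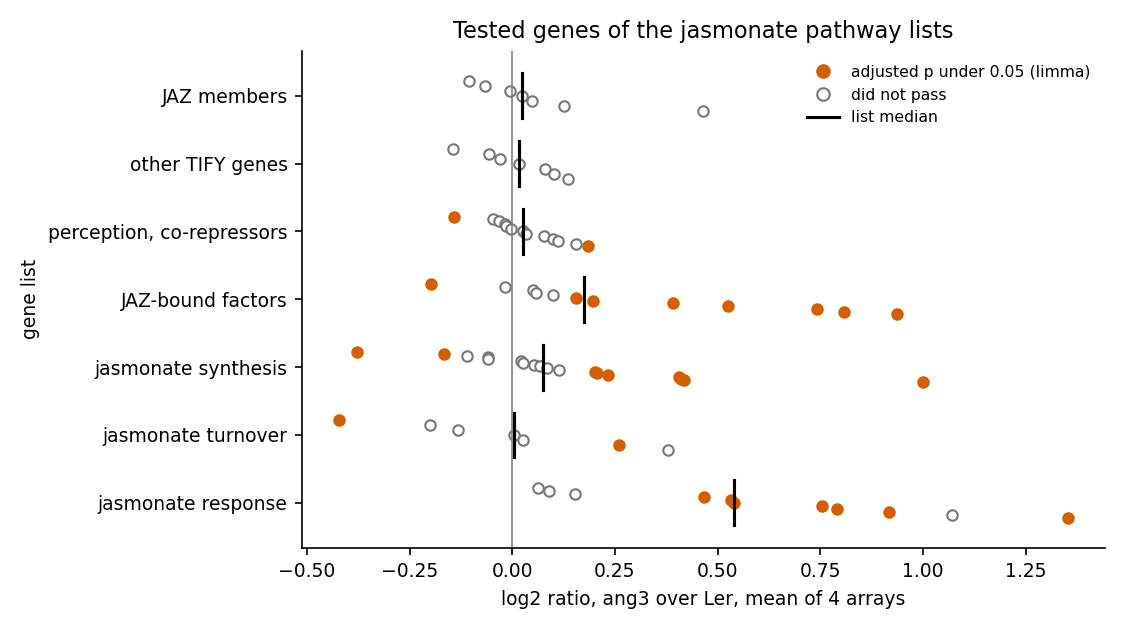
Mean log2 ratio of ang3 over Ler (x axis) of each tested gene in 7 lists (rows), with filled points at an adjusted p under 0.05 and black bars at list medians. The 7 JAZ members hold 0 filled points, whereas 7 of 12 JAZ-bound factors and 7 of 11 response genes are filled on the right.

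Of 11 tested jasmonate response genes, 7 rose, 0 fell and 4 did not pass, with a median ratio of 0.54. TAT3, a tyrosine aminotransferase gene, rose by 1.35 (SE 0.0603, SD 0.848, n = 4; adjusted p = 0.00298, limma). It was at 0.60 and 0.65 with ang3 in Cy5 and at 2.24 and 1.92 with ang3 in Cy3, and it was well above background in Ler on 1 of 4 arrays, so that the size of the difference depends on how background is treated. With Feature Extraction's processed signals, which carry no offset, TAT3 stood at 3.96 and VSP1 at 1.36. VSP1, a vegetative storage protein gene whose close copy VSP2 can share its signal, rose by 0.53 (SE 0.0487; adjusted p = 0.00789), with 0.27, 0.80, 0.42 and 0.63. ORA59, an ERF factor of the jasmonate and ethylene branch, rose by 0.75 (SE 0.0715; adjusted p = 0.00811), with 0.44, 0.96, 0.81 and 0.80. VSP1, ORA59 and TAT3 were higher in ang3 on 4 of 4 arrays. These 3 genes passed in each alternative run for them. Without replicate 3, 3 genes of the list rose, against 7 without replicate 1.

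Among 18 tested jasmonate synthesis genes, 7 rose, 2 fell and 9 did not pass, and the median was 0.08. OPR3, the reductase gene of the peroxisomal branch, rose by 0.42 (adjusted p = 0.0103, limma), OPCL1, which activates its product, by 0.41 (adjusted p = 0.0131) and AOS, the allene oxide synthase gene, by 0.41 (adjusted p = 0.0221). The plastid desaturase genes FAD7 and FAD8 fell by 0.38 (adjusted p = 0.00831) and 0.17 (adjusted p = 0.03). Without replicate 3, 1 gene of the list rose, with an adjusted p of 0.0516 for OPR3, 0.0553 for OPCL1, 0.108 for AOS and 0.0533 for FAD7. Without replicate 2, 2 rose (OPCL1 at an adjusted p of 0.0545), as did 2 without replicate 4 (AOS at 0.0514). FAD8 lost its call without any 1 array (adjusted p of 0.068 to 0.129), and with median centring 10 genes rose and 0 fell, with FAD7 at -0.20 (adjusted p = 0.0736) and FAD8 at 0.017 (adjusted p = 0.866). The FAD8 call was also lost with the processed signals (adjusted p = 0.0514), the authors' series table (adjusted p = 0.0515) and no dye term (adjusted p = 0.0559).

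Of 7 tested genes of jasmonate turnover, 1 rose, 1 fell and 5 did not pass, with a median of 0.0043. IAR3, an amidohydrolase gene that acts on hormone conjugates, rose by 0.26 (adjusted p = 0.0407, limma), a call lost without replicate 1, 2 or 3 (adjusted p of 0.0766 to 0.184), and JMT, a jasmonate methyltransferase gene, fell by 0.42 (adjusted p = 0.00781). The IAR3 call was also lost with the processed signals (adjusted p = 0.0692), the authors' series table (adjusted p = 0.0693) and no filter on dim probes (adjusted p = 0.0588). JMT was well above background in ang3 on 2 of 4 arrays, and with the processed signals its ratio was -1.76. CYP94B3, a hormone oxidase gene, was too dim to be tested.

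Genes that touch and wounding induce within minutes were listed as a check of handling, because several JAZ genes respond to the same stimuli. Of 11 tested, 5 rose, 0 fell and 6 did not pass. The list median was -0.0002 on replicate 1, 0.89 on replicate 2, 0.23 on replicate 3 and 0.48 on replicate 4. ZAT10, a zinc finger gene, rose by 1.08 (adjusted p = 0.0454, limma), with -0.06, 2.14, 1.24 and 0.99, and TCH3, a calmodulin-like gene, by 0.93 (adjusted p = 0.0146), with -0.18, 1.89, 0.58 and 1.44. WRKY33 rose by 0.65 (adjusted p = 0.0126), ZAT12 by 0.53 (adjusted p = 0.025) and TCH4, of a cell wall enzyme, by 0.34 (adjusted p = 0.0151). Without replicate 3, 0 of these genes passed (adjusted p of 0.051 to 0.149), against 3 without replicate 2, 2 with no dye term and 9 with median centring. With no dye term TCH3 (adjusted p = 0.0885), ZAT10 (adjusted p = 0.0587) and ZAT12 (adjusted p = 0.0525) did not pass. TCH3 averaged 0.20 with ang3 in Cy5 and 1.66 with ang3 in Cy3. ZAT10 also did not pass with the processed signals (adjusted p = 0.0704) or with no filter on dim probes (adjusted p = 0.0748).

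JAZ1 had its highest ratio on replicate 2 and its lowest on replicate 1, as did JAZ12, 7 of the 11 touch and wound genes and 6 of the 11 jasmonate response genes. The share of all genes tested with this order was not counted, so the counts cannot show an order particular to these genes. Over all genes, replicate 1 had the smallest and replicate 2 the largest spread of ratios (SD 0.198 and 0.335). The summed log2 level of the 13 touch and wound genes was 13.33 to 13.80 in ang3 and 12.77 to 13.34 in Ler, and its part in the JAZ1 values was not tested. JOX2, a jasmonate oxidase gene, and PDF1.2, a defensin gene, were picked after their values were seen as further genes high on replicates 2 and 3. JOX2 had ratios of 0.02, 1.16, 0.41 and -0.07 (adjusted p = 0.226), and PDF1.2 had 0.08, 2.1, 1.92 and 0.18 (adjusted p = 0.122).

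**Figure D4:**
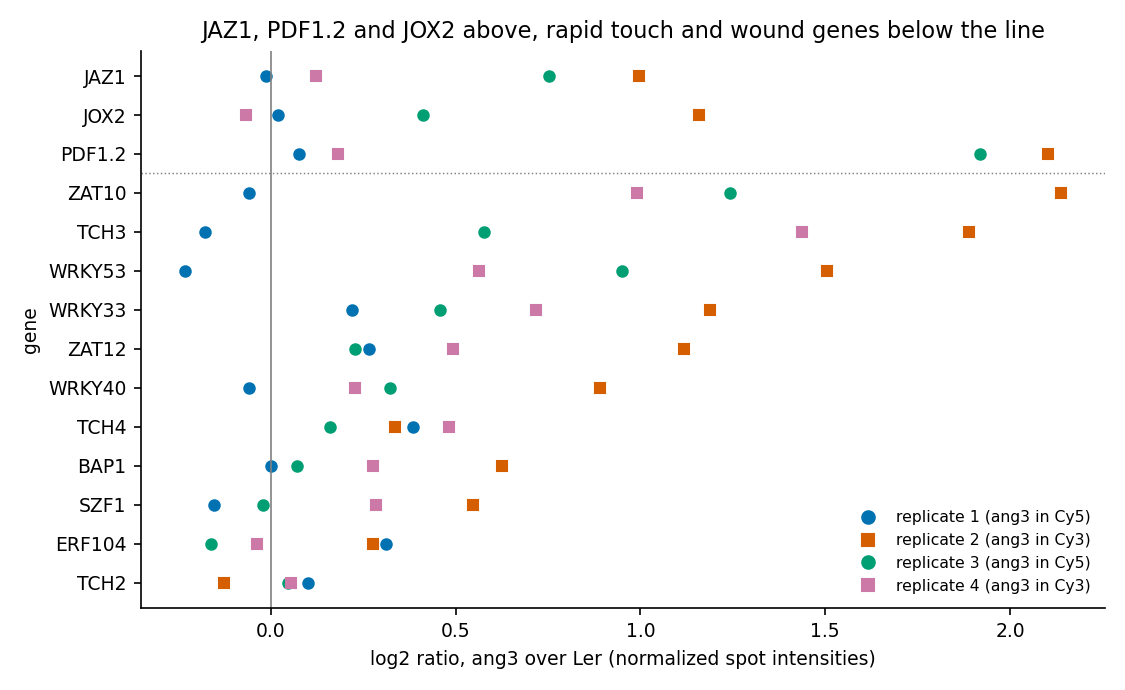
Log2 ratio of ang3 over Ler (x axis) on each array for JAZ1, JOX2 and PDF1.2 above the dotted line and for the 11 tested touch and wound genes below it. JOX2 and PDF1.2 did not pass and were picked after their values were seen, so their likeness to JAZ1 is no result. Replicate 2 is the highest array for 8 and replicate 1 the lowest for 7 of the 11 touch and wound genes, and replicate 4 is high for ZAT10 and TCH3 but not for JAZ1. The order of arrays was not counted over all genes tested.

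Across other ways of processing the arrays, the count of JAZ members called stayed at 0 in each direction except with median centring, where JAZ1 and JAZ12 were called higher. The fitted ratio of JAZ1 was above 0 and that of JAZ3 below 0 in each of 12 alternatives. The ranges were 0.25 to 0.68 for JAZ1 and -0.34 to -0.07 for JAZ3. These are not 12 separate checks. No dye term, no filter on dim probes, a stricter filter and the mean of a locus' probes left the means at 0.46 and -0.10. The processed signals and the authors' series table gave the same 0.66 and -0.34.

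**Figure D5:**
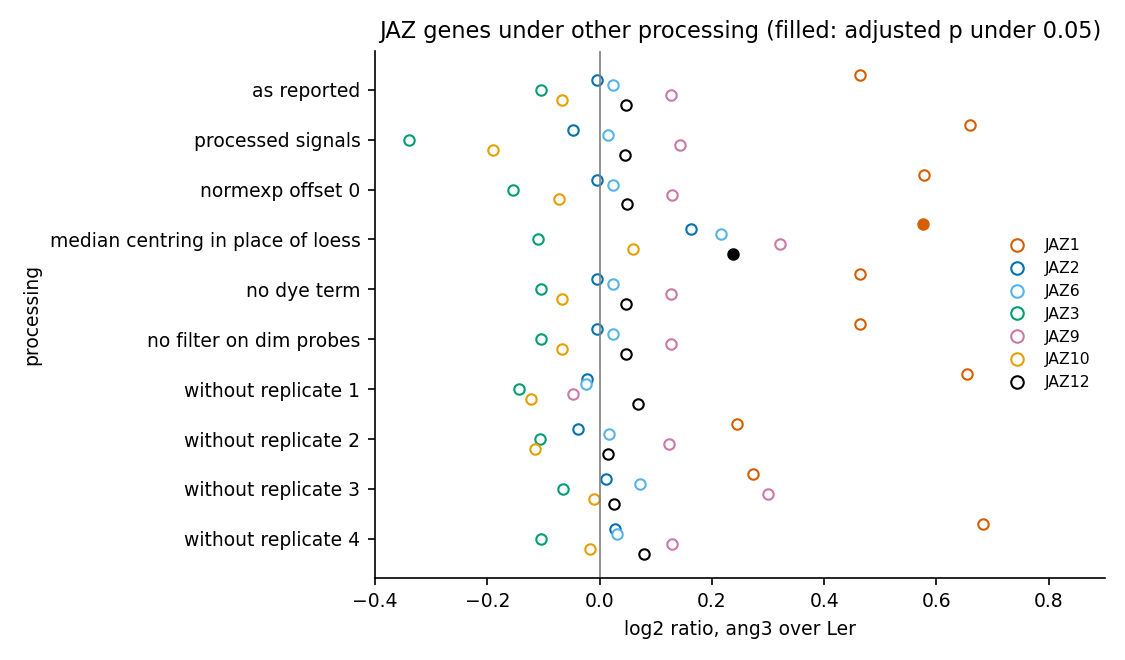
Log2 ratio of ang3 over Ler (x axis) of the 7 measured JAZ genes under 10 of the ways of processing (rows), with filled points at an adjusted p under 0.05. Only JAZ1 and JAZ12 are filled, both in the row for median centring, and JAZ1 moves between 0.25 without replicate 2 and 0.68 without replicate 4.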

How the data were processed

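The authors used Agilent Feature Extraction 10.1.1.1, per the series text and the file headers. Median spot and background intensity values were used as deposited. The deposited processed intensities are background-subtracted, detrended and dye-normalized, per the file headers. The deposited log10 ratio matched their red over green within 0.001 for 67.7% to 76.6% of probes per array. It was listed as 0 for 23.4% to 32.3%. The deposited p-value rests on 1 array. The authors' series table holds log2 ratios, which matched the processed signals turned to ang3 over Ler (r of 1), with medians of -0.0452, 0.0259, 0.00776 and -0.097. No genome build is given in the sources used here, so no coordinates are printed.

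In R 4.3.3 with limma 3.58.1, intensities were corrected with normexp (offset 50) and normalized by loess. Control spots had weight 0, as did 1 to 9 non-uniform spots per array. No spot was saturated. A locus was represented by its brightest tested probe, and 20155 genes and unnamed probes were tested. lmFit and eBayes were used with a dye intercept (residual degrees of freedom 2, prior 3.03), and SE rests on the spread within a dye orientation. Channel levels are those after loess and Aquantile. Fit and calls were tested on simulated data of 20145 genes, where 42 of 67 genes changed by 0.5 on the log2 scale were recovered (62.7%). Far fewer genes were changed there than the 26.2% called in the data, so 62.7% is not the chance of calling a JAZ gene here. Figures were drawn with matplotlib 3.10.9 in Python 3.11.15.

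The 4 arrays lie on 1 slide imaged in 1 scan, so no batch could be tested. The series text names biological replicates in dye swaps but not which arrays form a swap, so each array counts as 1 replicate. The members and gene lists were chosen with earlier results of these data known. Named were all members, and of each other list every called gene where there were at most 5, otherwise the 3 with the smallest p in each direction, or the 1 with the smallest p where none passed. Outside this rule, COI1, JAZ4, JAZ11, CYP94B3, MYC3, MYC5, LOX2, JOX2, PDF1.2 and the shoot markers were named with their values known. Locus names come from the array files, symbols from common use checked against the TAIR10.1 gene table, which holds all 10 members.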

Additional observations from a re-analysis of the deposited data

How the results depend on the processing

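Among 7 measured JAZ genes, 0 were higher and 0 lower with the processed signals, a normexp offset of 0, no dye term, no filter on dim probes (10 genes), a stricter filter, the mean of a locus' probes, the authors' series table, and each array left out. With median centring 2 were higher, the JAZ median was 0.22, JAZ2 turned to 0.16 and JAZ10 to 0.059, against a shift of all genes to 0.14. Relative to that shift, the JAZ median was 0.07, JAZ2 0.019 and JAZ10 -0.08. Median centring gave 38 higher and 1 lower of 68 tested pathway genes, against 23 and 5 as reported, and 6947 higher and 425 lower over all genes, against 3018 and 2265. Of the genes called, 57.1% were higher as reported, 94.2% with median centring and 46.8% with the processed signals. Without a dye term 2 pathway genes were lower. Beyond a log2 ratio of 1 in size, 1 pathway gene was higher and 0 lower, with 101 and 6 over all genes. With 1 array left out, 6 to 18 pathway genes were higher and 1 to 2 lower, and over all genes 374 to 1686 were higher and 162 to 1217 lower, both lowest without replicate 3. With 1 array left out JAZ2 ranged from -0.0376 to 0.0269, JAZ6 from -0.0248 to 0.0725, and JAZ9 from -0.0467 to 0.30. Each array holds both genotypes and enters as a ratio, so the fit is already paired by array. Dim probes limit what can be said of JAZ5, JAZ7 and JAZ8.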
